A study of Mus musculus with 84 samples.

Results

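The 40 genes described here encode receptors for the fast transmitters of the nervous system: 12 subunits of GABA-A receptors, 4 of glycine receptors, 17 of ionotropic glutamate receptors and 7 metabotropic glutamate receptors. They were chosen by name, as receptor families, among the 50686 genes of the count table, and other subunits of the same families were not analysed here. The question was which of these subunits the sensory neurons of the airways carry, and whether classes of neurons differ in them.

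The neurons came from vagal ganglia of C57BL/6 mice. They were found by the dye DiI (2%), a lipophilic tracer carried back along axons from the lungs and bronchi, picked 1 at a time, and sequenced after amplification of their mRNA, with 76-base reads on a NextSeq 500. All 84 neurons form 1 group in the labels, with the same strain, tracer and tissue and no treatment, and the labels give neither the age of the mice nor the animal of each neuron. Values are CPM, the count of a gene scaled to a sum of 1e6 per neuron, and a gene was called found in a neuron at 10 CPM or more.

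GABA-A and glycine receptors are chloride channels built from several subunits. In most central neurons their opening is inhibitory, but sensory neurons keep a high internal chloride through the cotransporter Slc12a2, so that GABA depolarises them. Vagal sensory neurons themselves signal with glutamate, which they release in the brainstem. AMPA, kainate and NMDA receptors are cation channels opened by glutamate, and in sensory neurons they are known from cell bodies, central terminals and peripheral endings. Metabotropic glutamate receptors signal through G proteins, and those of group III (Grm4, Grm6, Grm7 and Grm8) act mainly as presynaptic brakes on release.

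Values are for the 72 neurons with 5000000 or more counts, of which the shallowest had 6732279 counts, so that 10 CPM was at least 67.3 counts. Total counts of all 84 ranged from 576966 to 20668832. The number of genes found per neuron was uneven, from 841 to 8870 with a median of 5855.5, and 38 neurons had 5000 or more. The neurons carried the transcripts of their labelled type: Snap25, Stmn2 and Prph were found in 72 of 72, although the summed level of 8 neuronal markers went down to 491 CPM in 1 neuron. Satellite glia markers (7 genes) had a summed median of 541 CPM with a range from 2.59 to 23075 CPM, and Schwann cell markers (5 genes, of which Pmp2 was found in 0 neurons) had 79.5 CPM. Leukocyte and endothelial markers (4 genes each) had summed medians of 0 CPM. Because no animal is named, neurons were not treated as replicates and no p-value was computed. Shares are given with exact (Clopper-Pearson) 95% intervals, which cover counting error only, and classes are compared by the size of the difference, with 40 percentage points as the mark. Within a neuron, a transcript that was missed and one that was not expressed cannot be told apart.

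Of the 40 receptor genes, 24 were found in at least 1 neuron, 9 in 20 or more and 3 in at least 50% of neurons. Over all genes found in at least 1 neuron, 34% reached 50% of neurons. The 3 genes were the glycine receptor beta subunit Glrb (51 of 72 neurons), the AMPA receptor subunit Gria4 (42) and the metabotropic receptor Grm7 (38). A neuron held a median of 5.5 receptor genes, from 0 to 15, and 8 neurons held none. This number followed the number of all genes found (Spearman's rho across the 72 neurons 0.883, a description, since both counts come from the same library). In the 38 neurons with 5000 or more genes the median was 9 receptor genes, and in the other 34 it was 2.5.

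**Figure D1:**
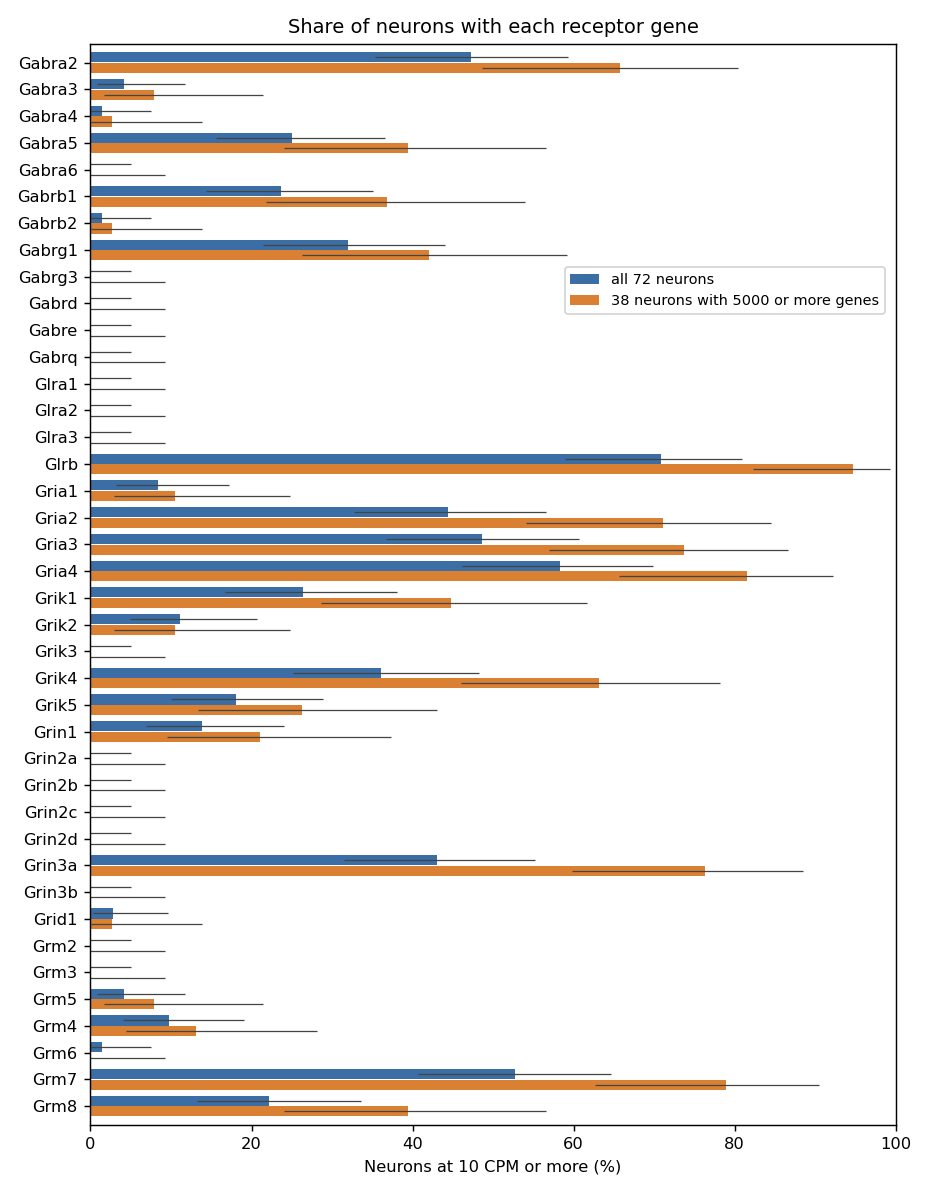
Share of neurons with each of the 40 receptor genes at 10 CPM or more (x axis, percent; genes on the y axis), in all 72 neurons (blue) and in the 38 neurons with 5000 or more genes (orange); lines are exact 95% binomial intervals. Glrb is the most frequent in both sets, with 51 of 72 and 36 of 38 neurons, and 16 genes have no bar.

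**Figure D2:**
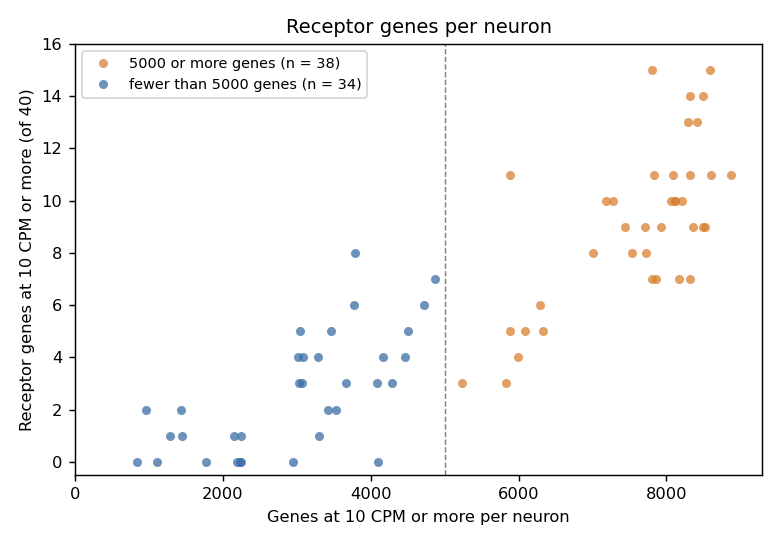
Receptor genes found per neuron (y axis, of 40) against all genes found at 10 CPM or more (x axis) for the 72 neurons; the dashed line is at 5000 genes. Neurons right of the line (n = 38) hold 3 to 15 receptor genes and those left of it (n = 34) hold 0 to 8.

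Fewer genes found in a neuron went with fewer receptor genes. Against the 34 neurons with fewer genes, the 38 with 5000 or more had a share at least 40 points higher for 7 of the 24 receptor genes found. Among all genes 38% did so, and the reverse held for 0 receptor genes and 0.0622% of all genes. The 7 were Glrb (36 of 38 against 15 of 34), Gria2 (27 against 5), Gria3 (28 against 7), Gria4 (31 against 11), Grik4 (24 against 2), Grin3a (29 against 2) and Grm7 (30 against 8). The share of receptor genes past the mark was below that of all genes. The summed satellite glia level had a median of 256.7 CPM in the first set and 744 CPM in the second, and the part of glia in these differences was not tested. Classes of neurons are therefore compared among the 38 only.

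GABA-A receptor subunits came mostly from 1 gene cluster and from Gabra5. The alpha subunits, which form the GABA site together with beta subunits, were led by Gabra2 (ENSMUSG00000000560), found in 34 of 72 neurons (47.2%, 35.3 to 59.3%), with a median of 9.45 CPM over all 72, a median of 67.9 CPM where found and a highest value of 448 CPM. Gabra5, an alpha subunit known from extrasynaptic receptors, was found in 18 neurons (25%, 15.5 to 36.6%), at a median of 26.9 CPM where found. It came with Gabra2 in 14 of its 18 neurons. The exons of Gabra5 overlap those of Gm9962 on the other strand, and the strand setting of the counting is not given. Gabra3 was found in 3 neurons, Gabra4 in 1 at 19.5 CPM and Gabra6 in none. Of the listed beta subunits, Gabrb1 (ENSMUSG00000029212) was found in 17 neurons (23.6%, 14.4 to 35.1%) and Gabrb2 in 1, at 10.6 CPM. Gabrg1 (ENSMUSG00000001260), a gamma subunit, was found in 23 neurons (31.9%, 21.4 to 43.99%), with a median of 62.6 CPM where found and a highest value of 366 CPM. The gamma subunit Gabrg3, the delta subunit Gabrd, the epsilon subunit Gabre and the theta subunit Gabrq were found in none. A limit of 3 counts for a count of 0 allows a share of up to 4.17% for 0 of 72, and the upper end of the exact interval is 4.99%.

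Gabrg1, Gabra2, Gabra4 and Gabrb1 are neighbours on chromosome 5 (GRCm38, GENCODE M21). Gabrg1 lies at chr5:70751047-70842617, Gabra2 at chr5:70957597-71095849 and Gabra4 at chr5:71569749-71658308, all on the minus strand, and Gabrb1 at chr5:71658113-72149037 on the plus strand. The first exons of Gabra4 and Gabrb1 overlap, so that without a stated strand setting reads in the overlap cannot be assigned to either. The promoters of the 3 genes found in 17 or more neurons are shown because these genes were found together in 11 of 72 neurons. They are RefSeq sequences (GRCm38.p6), from 250 bases before to 50 bases after the RefSeq start, 5′ to 3′ on the gene's strand. Each CG pair is in capitals. The windows are Gabrg1 at chr5:70842568-70842867 (minus strand), Gabra2 at chr5:71095800-71096099 (minus strand) and Gabrb1 at chr5:71657671-71657970 (plus strand). The Gabrb1 window ends before the GENCODE start of that gene given above.
Gabrg1: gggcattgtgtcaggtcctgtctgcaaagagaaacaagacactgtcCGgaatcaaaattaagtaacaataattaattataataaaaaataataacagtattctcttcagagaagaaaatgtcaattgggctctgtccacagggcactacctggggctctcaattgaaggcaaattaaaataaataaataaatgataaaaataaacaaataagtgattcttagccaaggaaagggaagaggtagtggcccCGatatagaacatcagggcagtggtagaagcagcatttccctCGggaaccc
Gabra2: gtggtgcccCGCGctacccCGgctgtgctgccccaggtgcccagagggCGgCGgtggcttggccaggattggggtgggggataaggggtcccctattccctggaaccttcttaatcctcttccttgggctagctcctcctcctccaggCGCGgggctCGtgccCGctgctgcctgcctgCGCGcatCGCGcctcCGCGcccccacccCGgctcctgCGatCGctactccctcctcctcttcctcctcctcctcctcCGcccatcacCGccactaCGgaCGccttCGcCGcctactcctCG
Gabrb1: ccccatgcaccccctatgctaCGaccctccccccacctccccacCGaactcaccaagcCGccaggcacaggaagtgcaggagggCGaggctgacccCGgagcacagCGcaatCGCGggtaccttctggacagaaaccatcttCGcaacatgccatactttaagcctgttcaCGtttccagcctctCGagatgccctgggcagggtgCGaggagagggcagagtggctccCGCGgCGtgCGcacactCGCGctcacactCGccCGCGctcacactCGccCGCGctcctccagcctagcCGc

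The Gabrg1 window holds 3 CG pairs, while those of Gabra2 and Gabrb1 hold 25 each and that of Gabra4 holds 12. The median over 32851 promoters of this length is 7, and 76.69% of them have as many CG pairs as Gabrg1 or more, against 18.43% for Gabra2 and Gabrb1. None of the 4 windows holds TATAAA on either strand, which 13.62% of all promoters do. The table has a promoter for 29 of the 40 receptor genes.

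Of this cluster, Gabrg1, Gabra2 and Gabrb1 were often found in the same neurons. Of the pairs compared here, the shares lay further apart for Gabrg1 with Gabrb1. Gabra2 was found in 17 of the 23 neurons with Gabrg1 (73.9%, 51.6 to 89.8%) and in 17 of the 49 without it (34.7%, 21.7 to 49.6%). Gabrg1 was found in 14 of the 17 neurons with Gabrb1 (82.4%, 56.6 to 96.2%) and in 9 of the 55 without it (16.4%, 7.77 to 28.8%). Among the 38 neurons with 5000 or more genes, these shares for Gabra2 were 13 of 16 (54.4 to 95.95%) against 12 of 22 (32.2 to 75.6%). For Gabrg1 they were 11 of 14 (49.2 to 95.3%) against 5 of 24 (7.13 to 42.2%). The intervals cover counting error only and no animal is named, so these shares are a description. All 3 genes were found in 11 of 72 neurons, exactly 2 in 12, exactly 1 in 17 and none of them in 32.

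**Figure D3:**
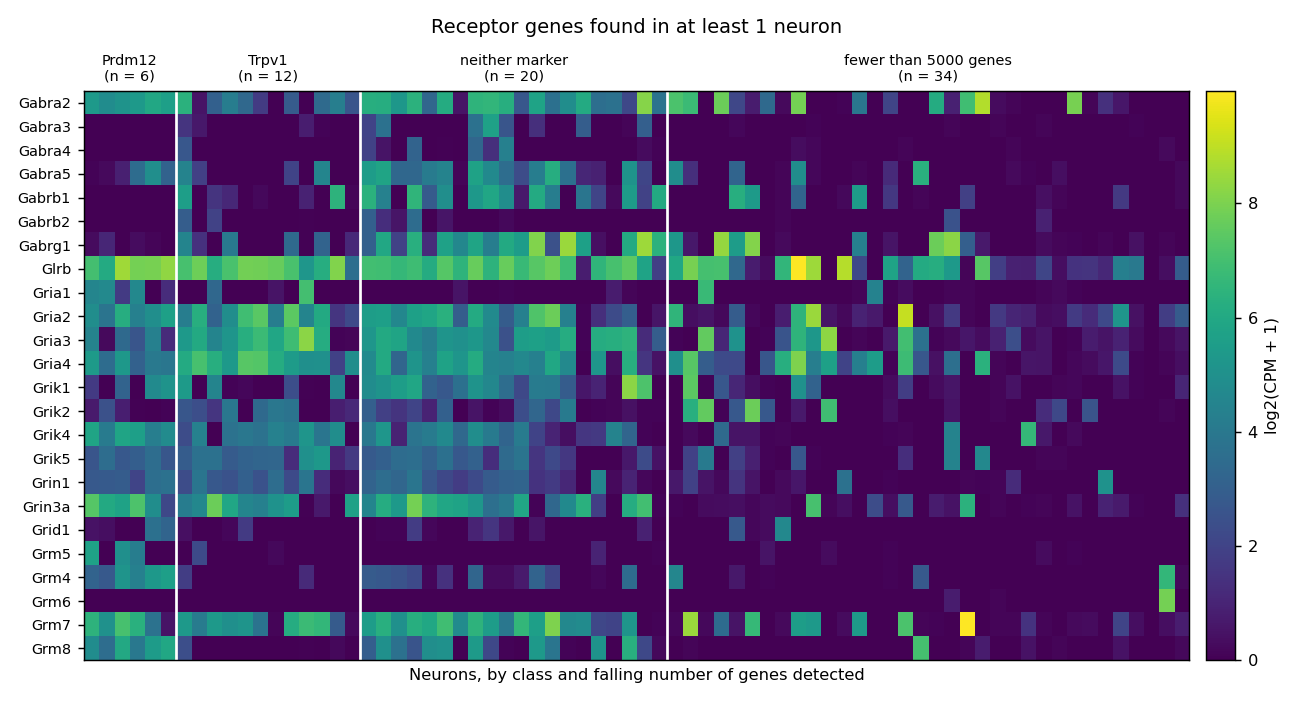
Levels, as log2(CPM + 1), of the 24 receptor genes found in at least 1 of the 72 neurons (rows), with 1 column per neuron, ordered by class and then by falling number of genes found. Glrb is at 10 CPM or more in 36 of the 38 columns left of the last white line, Gabrb1 is dark in the 6 Prdm12 neurons, and the 34 neurons with fewer than 5000 genes are mostly dark.

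The glycine receptor was represented by its beta subunit alone. Glrb (ENSMUSG00000028020, chr3:80843599-80913660), which anchors the receptor to the scaffold protein gephyrin and forms channels only together with alpha subunits, was found in 51 of 72 neurons (70.8%, 58.9 to 80.95%), with quartiles of 5.67 and 166 CPM around a median of 86.5 CPM. The alpha subunits Glra1, Glra2 and Glra3 were found in 0 neurons, and their highest value in any neuron was 0.787 CPM, for Glra1. All 51 neurons with Glrb were therefore without a listed alpha subunit. Per kilobase of exon, Glrb was also the most abundant receptor gene among those found in 20 or more neurons, at a median of 27.96 CPM per kb where found (quartiles 15.7 and 45.005). Gabra2 followed at 8.89 CPM per kb (3.91 and 12.2), Gabrg1 at 7.96 (5.21 and 30.3), Grm7 at 7.71 (5.33 and 15.8) and Gria4 at 6.32 (3.85 and 11.2), and these 4 did not differ beyond their spread.

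Among AMPA receptor subunits, Gria4 was found in 42 of 72 neurons (58.3%, 46.1 to 69.8%), Gria3 in 35 (48.6%, 36.7 to 60.7%) and Gria2 in 32 (44.4%, 32.7 to 56.6%). The shares come from the same 72 neurons, so their separate intervals cannot show whether these 3 genes differ in frequency. Their medians over all 72 neurons were 19.02, 8.14 and 6.44 CPM. Gria1, the subunit of many forebrain synapses, was found in 6 (8.33%, 3.12 to 17.3%). At least 1 AMPA subunit was found in 49 neurons, and Gria2, Gria3 and Gria4 together in 25. In the 38 neurons with 5000 or more genes, 34 had an AMPA subunit and 22 had these 3 together.

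Gria2 is the subunit that keeps calcium out of the channel, through a glutamine codon in the pore segment that the enzyme Adarb1 (ADAR2) edits in RNA to read as arginine. The coding sequences of this segment are shown for the 4 subunits because all of them carry a glutamine codon there in the genome, so that the genome sequence of this codon does not mark Gria2. They are from GENCODE M21 transcripts (GRCm38), 39 bases each, 5′ to 3′, with the glutamine codon in capitals: Gria1 at chr11:57243079-57243117 (plus strand, exon 11), Gria2 at chr3:80706890-80706928 (minus strand, exon 11), Gria3 at chrX:41610250-41610288 (plus strand, exon 11) and Gria4 at chr9:4464116-4464154 (minus strand, exon 12).
Gria1: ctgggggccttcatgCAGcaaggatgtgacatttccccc
Gria2: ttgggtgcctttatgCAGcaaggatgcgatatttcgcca
Gria3: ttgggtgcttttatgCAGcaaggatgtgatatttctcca
Gria4: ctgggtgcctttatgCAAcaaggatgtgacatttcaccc

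The codon is CAG in Gria1, Gria2 and Gria3 and CAA in Gria4. Over these 39 bases Gria3 differs from Gria2 at 3 bases, Gria4 at 6 and Gria1 at 7. A count table does not show which base was read, so the edited share of Gria2 was not measured. Gria2 was found in 32 of the 49 neurons with any AMPA subunit (65.3%, 50.4 to 78.3%), and 17 had an AMPA subunit without Gria2 at 10 CPM. Among neurons with 5000 or more genes these counts were 27 and 7 of 34. At 1 count or more Gria2 was present in 93.0% of neurons with an AMPA subunit at that level, so the absence of Gria2 depended on the threshold. Adarb1 was found in 27 of 72 neurons: in 16 of the 32 with Gria2 and in 11 of the 40 without it, and among neurons with 5000 or more genes in 16 of 27 and 6 of 11.

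Kainate receptors are built from low-affinity subunits (Grik1, Grik2 and Grik3), which can form channels alone, and high-affinity subunits (Grik4 and Grik5), which need them. Grik4 was found in 26 of 72 neurons (36.1%, 25.1 to 48.3%), Grik1, the kainate subunit best known from sensory neurons, in 19 (26.4%, 16.7 to 38.1%), Grik5 in 13 and Grik2 in 8. Grik3 was found in none, with 3.77 CPM as its highest value. Of the 30 neurons with a high-affinity subunit, 14 also had a low-affinity one and 16 did not. The auxiliary subunits Neto1 and Neto2 slow kainate receptor currents, and at least 1 of them was found in 36 of the 42 neurons with any kainate subunit. Whatever the kainate subunits, Neto2 alone was found in 49 of 72 neurons, and in 36 of the 38 with 5000 or more genes. The 4 highest values of Grik2, from 77.6 to 211 CPM, were all in neurons with fewer than 5000 genes.

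NMDA receptors need the subunit Grin1, which was found in 10 of 72 neurons (13.9%, 6.87 to 24.1%) at a median of 12.9 CPM where found. Grin3a, a glycine-binding subunit that lowers calcium entry, was found in 31 neurons (43.1%, 31.4 to 55.3%) at a median of 54.2 CPM where found. Of these 31 neurons, 26 had Grin1 below 10 CPM, but 29 had at least 1 count of it. Per kilobase, Grin3a stood at 4.41 CPM per kb where found (quartiles 2.20 and 6.67) and Grin1 at 1.33 (1.18 and 1.40). The glutamate-binding subunits Grin2a, Grin2b, Grin2c and Grin2d and the glycine-binding Grin3b were found in 0 neurons. Grin2c had no count in any of the 72, and the highest value among the other 4 was 2.05 CPM, for Grin2d. The exons of Grin3b and Grin2d overlap those of Tmem259 and Gm45441 on the other strand, so their counts are uncertain. The delta receptor gene Grid1 was found in 2 neurons.

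Metabotropic receptors were mostly those of group III. Grm7, the low-affinity member found at release sites, was found in 38 of 72 neurons (52.8%, 40.7 to 64.7%), with a median of 12.7 CPM over all 72. Its highest value was 987 CPM, in a neuron with 3033 genes. That neuron had the highest summed Schwann cell level of the 72, at 19358 CPM. Its satellite glia markers summed to 7520 CPM and its neuronal markers to 6644 CPM. The exons of Grm7 overlap those of Gm20387 on the other strand. Grm8 was found in 16 (22.2%, 13.3 to 33.6%) and Grm4 in 7 (9.72%, 3.999 to 19.01%). Of the 16 neurons with Grm8, 13 also had Grm7. Grm6, the receptor of retinal ON bipolar cells, was found in 1 neuron, at 233 CPM, and that neuron had 959 genes found. It is therefore not a value that the other neurons share: the next highest Grm6 value was 0.693 CPM. Grm5, of group I, was found in 3 neurons, and Grm2 and Grm3, of group II, in none, with 1.62 CPM as the higher of their highest values.

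Of 47 genes listed for the same synapses, 39 were found in at least 1 neuron and 13 in at least 50% of neurons, where 34% of all genes reached 50%. Of the G protein-coupled GABA-B receptor, Gabbr1 was found in 58 of 72 neurons, more than any of the 40 receptor genes, and Gabbr2 in 50. Per kilobase, Gabbr1 stood at 50.8 CPM per kb where found (quartiles 32.8 and 72.8). Of the scaffolds of inhibitory synapses, Gabarap was found in 72 neurons and gephyrin (Gphn) in 36. Of the excitatory scaffolds, Dlg4 (PSD-95) was found in 50 and Homer1 in 44. The chloride importer Slc12a2 was found in 40 neurons and the exporter Slc12a5 in 1. Of the 38 neurons with a listed GABA-A alpha subunit, 26 had Slc12a2 and 26 had Gphn.

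The genes of transmitter release were those of glutamate. Slc17a6, the vesicular glutamate transporter of most sensory neurons, was found in 61 of 72 neurons. Gad1 and Gad2, which make GABA, and Slc32a1 and Slc6a5, the vesicular and glycine transporters of inhibitory neurons, were found in none. Kainate auxiliary Neto2 was found in 49 neurons and Neto1 in 17, and none of the 11 AMPA auxiliary subunits listed reached 50% of neurons, the highest being Cacng2 and Cacng7 with 10 each. Uptake carriers were rare: Slc1a2 was found in 8 neurons and Slc1a1 in 4.

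Prdm12 marks the neural crest-derived neurons of the jugular ganglion, as opposed to the placode-derived neurons of the nodose ganglion. Among the 38 neurons with 5000 or more genes, 6 had Prdm12 at 10 CPM or more and 32 did not. The neurons with Prdm12 differed by 40 points or more in 9 of the 23 receptor genes found in at least 1 compared neuron. Of the 9, 6 were more frequent and 3 less frequent. Among the 14681 genes found in at least 1 of these neurons, 3.5% were more frequent by that much and 1.48% less frequent. The median difference was 0 points over all genes and 6.25 points over the 23 receptor genes found in at least 1 of the compared neurons.

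Of the 6 more frequent genes in the Prdm12 neurons, 3 were metabotropic receptors. Grm8 was found in 6 of 6 (100%, 54.1 to 100%) against 9 of 32 (28.1%, 13.7 to 46.7%). Its values in the 6 neurons were 63.6, 14.8, 43.8, 27.7, 10.9 and 60.8 CPM, and in the 32 they ran from 0 over a median of 0.117 to 76.8 CPM, so that the classes overlapped. Grm4 was found in 4 of 6 (66.7%, 22.3 to 95.7%) against 1 of 32 (3.13%, 0.0791 to 16.2%). In the same order of neurons its values were 34.6, 19.5, 38.5, 7.99, 5.91 and 47.8 CPM, and in the other 32 the median was 0.0606 and the highest value 10.6 CPM. All 6 Prdm12 neurons thus had Grm4 transcripts, and 4 of them lay above every other neuron compared. Grm5, the group I receptor that couples to phospholipase C, was found in 3 of 6 against 0 of 32, with 30.5, 17.9, 0, 51.2, 0 and 0 CPM in the 6 neurons and at most 3.68 CPM in the others. Grm7 did not reach the mark, with 5 of 6 against 25 of 32.

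Ionotropic glutamate receptor genes differed in both directions. Grik4 was found in 6 of 6 against 18 of 32, at medians of 37.7 CPM (16.7 to 56.2) and 12.97 CPM (0 to 36.5). The difference in Grik4 fell short of the mark at 1 count, 5 CPM and 50 CPM, and at 7000 genes. It also fell short with the Prdm12 marker at 1 count and without neurons at 1000 CPM of satellite glia markers or more. Over the 14 alternatives it ran from 9.23 to 64.4 points. Gria1 was found in 3 of 6 against 1 of 32, with 2.24, 24.3, 0, 21.995, 24.9 and 1.41 CPM in the 6, and the single neuron outside them had 126 CPM. With scaling by trimmed means (TMM), Gria1 reached 10 CPM in none of the 5 neurons that kept Prdm12 and the difference was -3.13 points. Gria3 went the other way, found in 2 of 6 against 26 of 32, with 9.60, 5.26, 19.05, 21.1, 0.188 and 1.35 CPM in the 6 and a median of 42.2 CPM in the 32. Among the auxiliary genes, Neto1 was found in 6 of 6 against 7 of 32, the AMPA receptor cornichon Cnih3 in 4 of 6 against 0 of 32, and Slc17a7, a vesicular glutamate transporter, in 3 of 6 against 1 of 32. The scaffold Homer2 was found in 2 of 6 against 24 of 32.

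Of the GABA-A cluster, the 6 Prdm12 neurons had Gabra2 at 10 CPM or more and its neighbours below that level. Gabra2 was found in 6 of 6 (100%, 54.1 to 100%) against 19 of 32 (59.4%, 40.6 to 76.3%), within a narrow range of 33.6, 39.4, 62.8, 40.8, 27.6 and 48.1 CPM. Gabrb1 was found in 0 of 6 against 14 of 32 and had no count in any of the 6. Gabrg1 was found in 0 of 6 against 16 of 32, with at most 1.13 CPM in the 6. All 6 thus had exactly 1 gene of Gabrg1, Gabra2 and Gabrb1, whereas among the 32 others 10 had none, 5 had 1, 7 had 2 and 10 had 3. With TMM scaling, and with no minimum of genes, the differences in Gabrb1 (-31.2 and -26.2 points) and Gabrg1 (-34.4 and -35.4) fell short of the mark, as did Gabrb1 at 3000 genes (-32.7). At 1 count, Gabra2 (6.25 points) and Gabrg1 (-14.6) fell short. Gabra2 also fell short at 5 CPM (18.8 points) and with 10000000 or more counts (38.7), and at 50 CPM its difference was -17.7 points.

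The median number of genes found was 8107 (7715 to 8317) in these 6 neurons and 7851.5 (5231 to 8870) in the others. The summed satellite glia level of the 6 had a median of 138 CPM (15.3 to 815) against 388 CPM (2.59 to 3509). Schwann cell markers went the other way, with a summed median of 179 CPM (5.93 to 294.4) against 71.2 CPM (0 to 726). The part of these differences in the results was not tested. A 7th neuron with Prdm12 had 4722 genes found and was not compared: it had Gabra2 at 110 CPM, Gabrb1 at 0 and Gabrg1 at 0.571 CPM, but Grm8, Grik4, Grm4 and Grm5 at 0.0952, 0.190, 0 and 0 CPM. Neuron numbers fall into 3 blocks, parted by gaps of more than 30, which the labels do not call batches. Of the 6 neurons, 2 were of the first block and 4 of the third. Grm8 was found in 2 of 2 against 5 of 9 in the first block and in 4 of 4 against 3 of 19 in the third, Gabrg1 in 0 of 2 against 4 of 9 and in 0 of 4 against 9 of 19, and Gria3 in 0 of 2 against 9 of 9 and in 2 of 4 against 13 of 19. Without the first block, Gabra2 (39.1 points), Gabrb1 (-39.1), Gria3 (-23.9) and Grm5 (25) no longer passed the mark, nor did Gabrb1 without the second (-39.3). When a single count of Prdm12 made a neuron a member of the class (13 against 25 neurons), 0 receptor genes passed the mark, and Gabrb1 was then 2.46 points higher in the class.

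**Figure D4:**
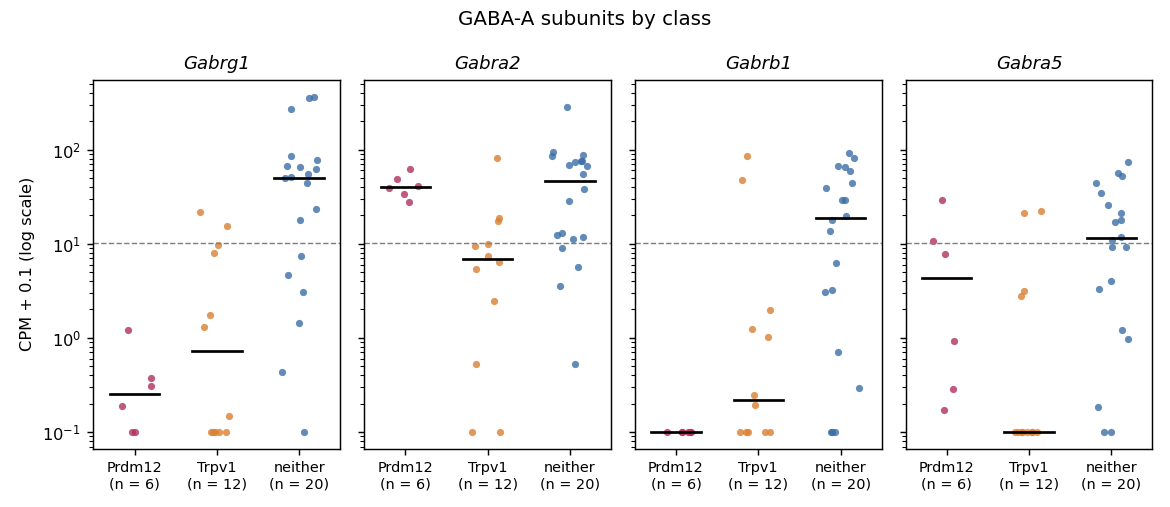
Levels of 4 GABA-A subunits, as CPM + 0.1 on a log scale, in the neurons with 5000 or more genes: 6 with Prdm12, 12 with Trpv1 and 20 with neither marker; each point is a neuron, bars are medians and the dashed line marks the level of 10 CPM. Gabra2 lies above the line in 6 of 6 Prdm12 neurons, where Gabrg1 and Gabrb1 lie below it, and medians of these 3 genes are lower in Trpv1 neurons than in neurons with neither marker.

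Trpv1, the capsaicin receptor of nociceptors, split the 32 neurons without Prdm12 into 12 with it and 20 without. Of the 21 receptor genes found in these neurons, 4 were less frequent with Trpv1 by 40 points or more and 0 more frequent. Among the 14431 genes found in them, 1.14% were less frequent by that much and 1.15% more frequent. The median difference over the 21 receptor genes found in at least 1 of these neurons was -5 points, and over all genes 0 points. Of the 4 genes, 3 were Gabrg1, Gabra2 and Gabrb1 of the chromosome 5 cluster and the fourth was Grm8.

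Gabrg1 was found in 2 of 12 Trpv1 neurons (16.7%, 2.09 to 48.4%) and in 14 of the 20 others (70%, 45.7 to 88.1%). Its values ran from 0 over a median of 0.621 to 21.6 CPM in the first and from 0 over 49.9 to 366 CPM in the second. Gabra2 was found in 3 of 12 (25%, 5.49 to 57.2%) against 16 of 20 (80%, 56.3 to 94.3%), with medians of 6.77 CPM (0 to 80.7) and 46.3 CPM (0.422 to 282.4). For both genes the classes overlapped, but 9 of 12 Trpv1 neurons had none of the 3 genes and 9 of the 20 others had all 3. Gabrb1 was found in 2 of 12 against 12 of 20, with medians of 0.119 CPM (0 to 85.8) and 18.7 CPM (0 to 90.7). Grm8 was found in 0 of 12 against 9 of 20, with 4.25 CPM as the highest value among the Trpv1 neurons. The scaffolds Homer2 (6 of 12 against 18 of 20) and Grip1, which binds AMPA receptors (5 of 12 against 17 of 20), were also less frequent in Trpv1 neurons.

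AMPA receptor genes did not part these neurons at the 40-point mark: Gria2 was found in 9 of 12 and 12 of 20, Gria3 in 10 and 16, and Gria4 in 11 and 15. Their medians in Trpv1 neurons were 25.1, 62.2 and 55.3 CPM, and in neurons with neither marker 21.4, 37.004 and 24.4 CPM, with overlapping quartiles. Glrb was found in 12 of 12 and 18 of 20.

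Genes found and glia were close in both classes (medians of 7763.5 and 7995.5 genes, and of 359 and 494 CPM of summed satellite glia markers). Within blocks, Gabrg1 was found in 0 of 3 against 4 of 6, in 1 of 1 against 2 of 3 and in 1 of 8 against 8 of 11 neurons, and Gabra2 in 0 of 3 against 5 of 6, 1 of 1 against 2 of 3 and 2 of 8 against 9 of 11. Without the first block, Gabrb1 and Grm8 differed by -27.8 and -28.6 points and no longer passed, and without the second block 7 receptor genes passed, among them these 4. Among all 65 neurons without Prdm12, whatever their number of genes (17 against 48), 0 of the 40 receptor genes passed the mark, and with TMM scaling Gabrg1 was the 1 gene that did.

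**Figure D5:**
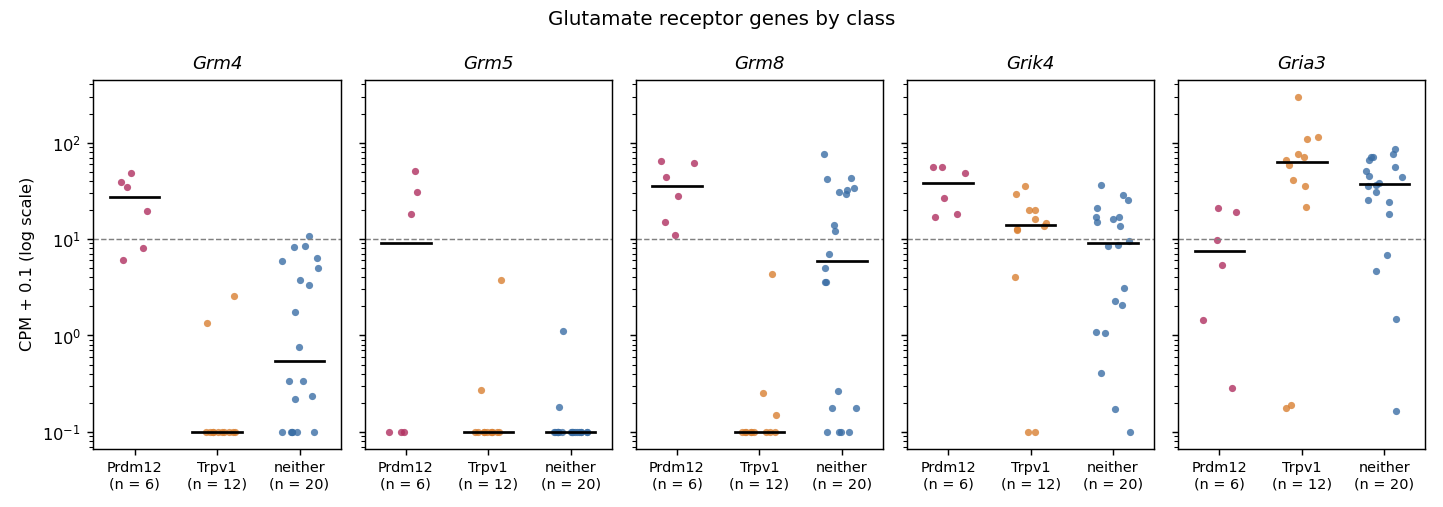
Levels of 5 glutamate receptor genes, as CPM + 0.1 on a log scale, in the same 3 classes of neurons with 5000 or more genes (n = 6, 12 and 20); points are neurons, bars are medians and the dashed line marks the level of 10 CPM. Grm8 lies above the line in 6 of 6 Prdm12 neurons and in 0 of 12 Trpv1 neurons, while Gria3 has its lowest median, 7.43 CPM, in Prdm12 neurons.

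Piezo2, a mechanically gated channel that senses stretch, was found in 14 of the same 32 neurons, of which 3 also had Trpv1. Of the 21 receptor genes found in these neurons, Gabra5 was the 1 that differed by 40 points. Among all genes found in them, 0.714% were more frequent in Piezo2 neurons by that much and 0.527% less frequent. Gabra5 was found in 10 of 14 Piezo2 neurons (71.4%, 41.9 to 91.6%) and in 3 of the 18 others (16.7%, 3.58 to 41.4%). Its values ran from 0 over a median of 21.6 to 73.4 CPM in the first and from 0 over 0.604 to 17.9 CPM in the second. With both markers in view, Gabra5 was found in 8 of 11 neurons with Piezo2 alone, 2 of 3 with both, 0 of 9 with Trpv1 alone and 3 of 9 with neither. In the same order, Gabra2 was found in 10, 1, 2 and 6 neurons and Gabrg1 in 7, 1, 1 and 7. Gabrb1 was found in 8, 1, 1 and 4 and Grm8 in 6, 0, 0 and 3. The part of Piezo2 in the differences by Trpv1 was not tested. Homer2 was found in 14 of 14 Piezo2 neurons against 10 of 18. Within blocks Gabra5 was found in 4 of 5 against 2 of 4, 3 of 3 against 0 of 1 and 3 of 6 against 1 of 13 neurons. The difference fell short of the mark at 1 count (30.2 points), at 50 CPM (21.4), with TMM scaling (35.7), with no minimum of genes (33.9) and at 3000 genes (35.7), and without the first block Gabra2, Gabrb1 and Grik1 passed it as well. The median summed satellite glia level was 256.7 CPM in Piezo2 neurons and 541 CPM in the others, and its part in the difference was not tested. Without neurons at 1000 CPM of glia markers or more, the difference in Gabra5 was 73.3 points.

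P2rx2, the ATP-gated channel subunit of nodose neurons, was found in 26 of the 32 neurons. Of the 21 receptor genes found in the 32, 0 differed by 40 points between the 26 and the 6 without it. Among all genes found in them, 3.36% were more frequent with P2rx2 by that much and 0.485% less frequent. With 6 neurons in the smaller class, a difference in share has wide intervals, and the 6 had fewer genes found (a median of 6085 against 7894.5) and a lower median of summed satellite glia markers (65.7 against 541 CPM). The comparisons by Trpv1, Piezo2 and P2rx2 divide the same 32 neurons, so that their results are not separate evidence: 11 of the 12 Trpv1 neurons had P2rx2. The count of 0 changed when a block was left out. Without the first, 2 genes passed the mark (Gria2 and Grik4), and without the second 3 did (these and Grm7). Of the 6 neurons without P2rx2, 1 was of the first block, 1 of the second and 4 of the third. The cause was not tested.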

How the data were processed

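The authors deposited raw counts: whole numbers of reads per Ensembl gene in 84 single neurons, without normalization. Counting was done with featureCounts (version not given), per the submitters' processing notes. Which aligner, genome build, annotation and strand setting were used is not given in the sources used here. The extraction protocol, per the labels, names mRNA amplification and no molecular identifiers, so copies made by amplification count repeatedly.

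Symbols and coordinates came from GENCODE M21 (GRCm38), which matched 50376 of 50686 identifiers; the other 310 held at most 0.253% of any neuron's counts. CPM was computed from each neuron's total. Neurons under 5000000 counts (12, with at most 3892206) were left out. A gene was found at 10 CPM or more, and classes were cut from 1 marker each at 10 CPM among neurons with 5000 or more genes found. Levels per kilobase used the merged exon length. No test was run, since the labels name no animal. No pair of neurons had identical counts. Promoter sequences came from RefSeq and pore segments from GENCODE transcripts.

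The members, lists, classes and thresholds were chosen with earlier results of these data known. All 40 receptor genes could be named. Those found in 20 or more neurons or past 40 points got full values, and of the synapse genes the 2 most frequent of each role and those past 40 points were named, except items withheld from this text, which are not reported here. Alternatives changed the detection threshold, depth and gene-number filters, class markers, scaling (TMM in edgeR 4.0.16, R 4.3.3, with no edgeR test), thinning to equal depth and the blocks of neuron numbers. Leaving out neurons with 1000 CPM or more of satellite glia markers was added after seeing the data. The steps were tested on simulated data. Python 3.11.15, numpy 2.4.6, pandas 2.3.3, scipy 1.17.1 and matplotlib 3.10.9 were used, with seed 1.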

Additional observations from a re-analysis of the deposited data

Results flagged for a closer look

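The 12 neurons under 5000000 counts entered no comparison, yet 13 of the 40 receptor genes reached 10 CPM in at least 1 of them. These neurons had totals from 576966 to 3892206, where 3 counts came to as much as 5.20 CPM, and held a median of 2 receptor genes, from 0 to 5. Gria2 was found in 7 of 12, Glrb in 6 and Grin3a in 4, with highest values of 703, 287.2 and 2017 CPM. Gabra4, found in 1 of the 72 deeper neurons, was found in 2 of these 12, at up to 602 CPM.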

How the results depend on the processing

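Thinning every neuron to 5000000 counts left the receptor genes past 40 points in the 4 marker comparisons the same. Keeping all 84 neurons added none to these classes and so tested nothing there. At 1 count, 39 receptor genes were present in at least 1 neuron, 15 in at least 50% of neurons and a median of 15 per neuron, Gria2 was present in 93.0% of neurons with an AMPA subunit, and 4 genes parted Piezo2 neurons, Gabra5 not among them. The number of genes in at least 50% of neurons was 6 at 5 CPM, 1 at 50 CPM, 6 with 10000000 or more counts, 1 with TMM scaling (factors from 0.0120 to 2.83), 5 without the third block and 7 without neurons rich in glia markers. Without the third block, Gria2 was found in 85.0% of neurons with an AMPA subunit.

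By Prdm12, the count of 9 became 1 at 50 CPM (Gria3) and 0 with the marker at 1 count. Signs turned for Gabra2 (-17.7 points) and Gria1 (-3.13) at 50 CPM, for Gria1 with TMM scaling (-3.13), and with the marker at 1 count for Gabrb1 by Prdm12 (2.46) and Grm8 by Trpv1 (3.57). By Trpv1, the count of 4 became 2 at 50 CPM (Gabra2 and Gabrg1), 1 with TMM scaling (Gabrg1), 7 without the second block, 0 with no minimum of genes, 1 at 3000 genes (Gabrg1), 1 with the marker at 50 CPM (Gabra5, none of the 4) and 1 with it at 1 count (Gabra2). By Piezo2, the count of 1 became 0 with TMM scaling, 4 without the first block, 0 with no minimum of genes, 0 at 3000 genes, 3 at 7000 genes, 3 with the marker at 50 CPM, 6 with it at 1 count and 3 without neurons rich in glia markers, and at 50 CPM the 1 gene was Gabra2, not Gabra5. The 0 genes by P2rx2 became 2 at 5 CPM (Grm4 and Grm8), 2 without the first block (Gria2 and Grik4), 3 without the second (these and Grm7) and 2 without neurons rich in glia markers (Gabra5 and Grik1). The 7 genes by number of genes found became 11 at 5 CPM, 1 at 50 CPM, 3 with TMM scaling and 12 without the third block. In each case the cause was not tested.

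By Prdm12, differences stayed past 40 points under 12 of 14 alternatives for Grm4 and Grm8, 10 for Grm5, 9 for Gabrg1 and Gria1, 8 for Gabra2, Gria3 and Grik4 and 7 for Gabrb1. By Trpv1 they did so under 12 of 16 for Gabrg1, 10 for Gabra2, 9 for Grm8 and 8 for Gabrb1, and by Piezo2 under 11 of 16 for Gabra5. These counts include keeping all 84 neurons. Not run, because a class fell under 3 neurons, were Prdm12 and P2rx2 without the third block, P2rx2 at 7000 genes, Prdm12 at 50 CPM and P2rx2 at 1 count. No paired analysis was possible because the neurons form 1 group. A gene absent from a neuron with fewer than 5000 genes may have been missed.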
